A study of Rattus norvegicus with 2 samples.

Results

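The genes described here encode the cytosolic ribosomal proteins, and they were followed across gated cell types and cycling states in 2 libraries of cells sorted as microglia from the hippocampus of fetal rats. Members were the features whose symbol begins with Rpl or Rps followed by a number, or with Rplp and a number, together with Rpsa, leaving out the Rps6k kinases and requiring at least 20 unique molecular identifiers (UMIs, counted 1 per captured molecule) over both libraries. Of 32623 features, 99 matched and 92 were members, under 84 distinct symbols. The 7 below the minimum were Rpl38 and Rps15al4 at 0 UMIs, Rpl8, Rpl35a, both IDs of Rpl7a and 1 of the IDs of Rpl21. The highest of these held 2 UMIs, and the lowest members were an ID named Rpl35al1 with 30 UMIs and an ID named Rps19l2 with 40.

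The members fell into 4 kinds. The main IDs of 69 core ribosomal protein symbols, 41 of the large subunit and 28 of the small, are called core genes. A further 6 IDs carried a core symbol a second or later time, 16 IDs carried a copy symbol such as Rps19l2, and Rps19bp1, which encodes a protein that binds Rps19 and is not itself a ribosomal protein, was caught by its symbol. Of 77 core symbols looked for, 4 had no feature under that name (Rpl22, Rps14, Rps19 and Rps26) and 4 were present below the minimum. Of the 69 core genes, 65 held at least 1000 UMIs and 4 did not (Rplp2, Rps6, Rps29 and Rpl39).

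A ribosome has a small subunit, which reads the messenger RNA, and a large subunit, which joins amino acids, and each holds 1 copy of most of its proteins. Their messages are among the most abundant in any cell and most begin with a run of C and T bases at the 5′ end, the terminal oligopyrimidine motif, through which mTORC1 and LARP1 adjust their translation together. Mammalian genomes also carry many processed copies of these genes, so that counting can divide a family's reads among near-identical features. Microglia are the resident macrophages of the brain, and fetal microglia still divide.

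Each library came from a pool of 7 male rat embryos on gestational day 20, with hippocampal cells dissociated and microglia isolated by flow cytometry. In 1 of them the embryos had been exposed in utero to the synthetic glucocorticoid dexamethasone, and the other, the control, had no such exposure. The strain, dose and days of exposure are not given in the sources used here. Neither group has a replicate, so no test was made, exposure and library cannot be told apart, and every interval below is at the 95% level and covers counting error only.

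Dexamethasone gave 4328 barcodes with 42611920 UMIs, and the control gave 8342 with 69940778. There were 5 barcode sequences occurring in both. Member UMIs made up 16.2% and 14.3% of all UMIs. Marker gates that used no ribosomal protein gene placed 2557 dexamethasone and 5256 control cells as microglia, by at least 3 of P2ry12, P2ry13, Tmem119, Cx3cr1, Gpr34 and Sall1. In these cells the microglia marker list summed to 29014 UMIs per 1000000 (CPM) with dexamethasone and 22718 in the control, and the border macrophage list to 1258 and 1334. At exactly 3 of the 6 genes stood 543 and 988 of them, and 302 and 454 cells missed the gate by 1 gene. The neuron list stood at 9.56 and 31.6 CPM and the choroid plexus list at 15.4 and 98.1 CPM. Mitochondrially encoded genes took 3.10% and 6.01% of UMIs, and the median UMIs per cell were 9070 and 7974. These differences between the libraries accompany every ratio below. For the summed members, whose log2 ratio of dexamethasone over control was 0.177, it was 0.133 with mitochondrially encoded genes out of the total, 0.178 with every cell thinned to 4500 UMIs and 0.147 in a stricter gate that allows no border macrophage gate gene and no neuron marker.

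The start sites of genes at both ends of the range of library ratios are shown first. A run of pyrimidines there is common among these genes but not found in all of them, and members were grouped by symbol. Each line gives 20 bases before and 20 from the annotated start, 5′ to 3′, from RefSeq on GRCr8, with an uninterrupted run of at least 5 C or T bases that covers the start in capitals. Rpl37, Rps10 and Rps27 were among the genes highest in the dexamethasone library, Rps15, Rpl12 and Rpl13 among the lowest, and Rpl41 took the most UMIs of the core genes.
Rpl37, chr2:55942925-55942964, plus strand: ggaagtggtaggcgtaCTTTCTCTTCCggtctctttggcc
Rps10, chr20:5700725-5700764, minus strand: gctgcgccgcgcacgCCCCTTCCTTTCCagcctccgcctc
Rps27, chr2:177964587-177964626, minus strand: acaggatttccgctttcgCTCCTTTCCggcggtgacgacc
Rps15, chr7:10068096-10068135, minus strand: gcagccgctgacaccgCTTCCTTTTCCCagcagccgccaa
Rpl12, chr3:36661920-36661959, plus strand: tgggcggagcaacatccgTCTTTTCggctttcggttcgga
Rpl13, chr19:68062494-68062533, plus strand: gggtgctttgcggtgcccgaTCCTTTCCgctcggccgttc
Rpl41, chr7:1563478-1563517, minus strand: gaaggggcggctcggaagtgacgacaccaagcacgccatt

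Of 55 core genes with a promoter entry, 35 (63.6%) had such a run over the annotated start, against 11 of 65 mitochondrial ribosomal protein genes (16.9%) and 4003 of all 33469 promoters (11.96%). The run lengths in the sequences above were 11 bases for Rpl37, 13 for Rps10, 9 for Rps27, 12 for Rps15, 7 for Rpl12 and 8 for Rpl13. Apart from Rpl41, which has no run there, the sequences shown were picked from the genes with it. Of the other genes at the ends, Rps15a, Rpl36, Rpl26 and Rps28 among the highest and Rpl13a, Rpl18 and Rpsa among the lowest had none over their annotated start, so genes with and without the run stood at both ends. The 35 genes with a run had a median log2 ratio of 0.19 (range -0.30 to 1.13) and the 20 without had 0.11 (range -0.38 to 1.33). These ranges overlap, but the highest genes without the run were Rplp2 (1.33) and Rps6 (0.96), each at under 2 CPM. Among genes of at least 1000 UMIs the highest without it was Rps15a (0.55), below Rpl37 (1.13), Rps10 (0.70) and Rps21 (0.70) with it. The letters CTTTCC, searched on both strands of the 300 bases from 250 before to 50 after the start, were found in 26 of the 55 (47.3%) and in 26.4% of all promoters. CTTTCC can lie inside a run of C and T, so these counts are not separate. A start annotated a few bases away, as a window with no run may have, would be missed.

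In gated microglia, ribosomal protein genes took 16.26% of UMIs with dexamethasone (16.24 to 16.27) and 14.38% in the control (14.37 to 14.39), for a log2 ratio of 0.177 (0.175 to 0.179). Core genes leaned the same way, with 55 of 69 higher in the dexamethasone library and a median log2 ratio of 0.13. Across all members 69 of 92 were higher, with a median of 0.15, where 49.0% of all 12226 genes compared were higher and their median was -0.0059. The large subunit genes had a median of 0.12 (32 of 41 higher) and the small subunit genes 0.19 (23 of 28 higher). Proteins of the mitochondrial ribosome, which translates the few messages of the mitochondrial genome, had 30 of 72 genes higher and a median of -0.024.

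Single genes spread far more widely than counting allows. The SD of the log2 ratios over the 65 core genes of at least 1000 UMIs was 0.28, where counting error alone gives 0.013, and over the 6293 genes of that depth it was 0.24. A log2 ratio of at least 0.5 toward dexamethasone was reached by 17 members, against 6.22% of all genes compared, and toward the control by 4, against 6.27%. Among genes of at least 1000 UMIs, 47.8% were above 0, and 9 of 77 members were that far higher, against 1.72% of genes of that depth, and 3 lower, against 1.46%. The 17 include the 4 core genes under 1000 UMIs, Rps29 (1.35), Rplp2 (1.33), Rpl39 (1.12) and Rps6 (0.96), each at under 2 CPM, and a minimum of 100 UMIs left 9 of them. A stricter microglia gate, which kept 215 dexamethasone and 523 control cells, gave 8.

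**Figure D1:**
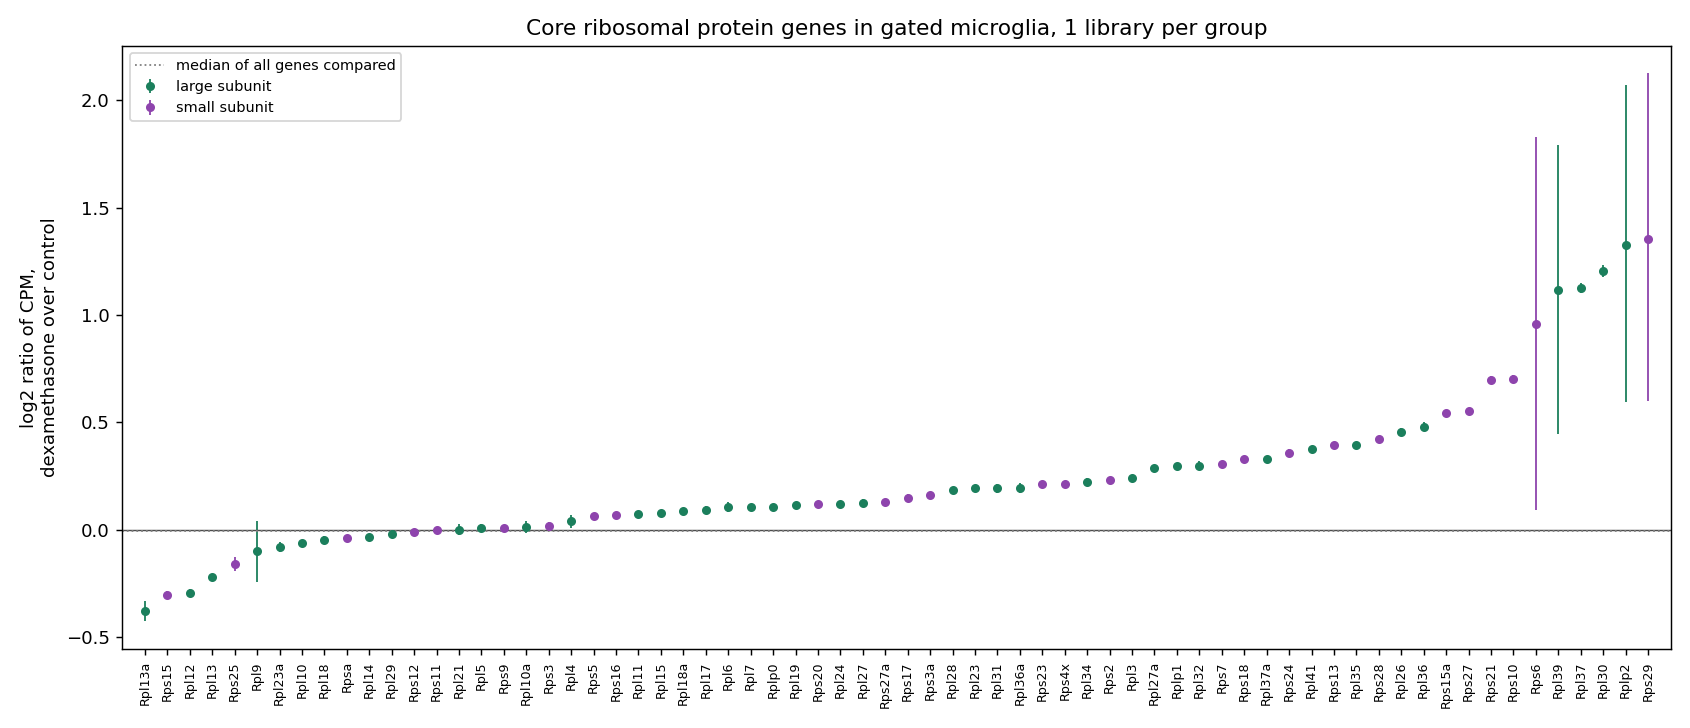
Log2 ratio of CPM, dexamethasone over control, in gated microglia for 68 of the 69 core ribosomal protein genes in order of their ratio, with the 95% counting interval of each gene as a bar and the subunits in 2 colours. Most points lie above the line at 0, from Rpl13a at -0.38 to Rpl30 at 1.20 among genes of at least 1000 UMIs, and the 4 wide bars at the right belong to genes of few UMIs.

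Rpl30, a large subunit protein that binds a kinked RNA fold, was the core gene of highest ratio among those at 50 CPM or more, at 861 CPM with dexamethasone and 374 in the control, for a log2 ratio of 1.20 (1.18 to 1.23). Rpl37, a zinc-binding protein of the large subunit, stood at 1235 and 566 CPM, for a log2 ratio of 1.13. Both log2 ratios exceed 1, far outside counting error. Rps10, at the mRNA entry of the small subunit, had 1881 and 1154 CPM, for a log2 ratio of 0.70, and Rps21, another small subunit protein, had 1779 and 1097 CPM, also 0.70. Rps27, which carries a zinc finger, had 2750 and 1876 CPM, and Rps15a had 2978 and 2040 CPM, at log2 ratios of 0.55 and 0.55. Below 0.5 followed Rpl36 (0.48), Rpl26 (0.46), Rps28 (0.42) and Rpl35 (0.40). Of the 10 genes of highest ratio, 5 belong to each subunit.

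At the other end, Rpl13a, which besides its place in the large subunit can leave the ribosome to silence inflammatory messages, stood at 198 CPM with dexamethasone and 257 in the control, for a log2 ratio of -0.38 (-0.43 to -0.33). Rps15, near the decoding centre of the small subunit, had 2011 and 2479 CPM, for a log2 ratio of -0.30. Rpl12, at the base of the large subunit's stalk, had 1407 and 1726 CPM, for a log2 ratio of -0.29. These 3 were lower with dexamethasone by more than their counting intervals but by less than 0.5. Rpl13 at -0.22 and Rps25 at -0.16 came next, then Rpl23a (-0.080), Rpl10 (-0.061), Rpl18 (-0.046), Rpsa (-0.039) and Rpl14 (-0.033), which were nearly alike in the libraries.

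By role, the stalk that recruits elongation factors is built of Rplp0, Rplp1 and Rplp2. Rplp0 had 5238 CPM with dexamethasone and 4862 in the control (log2 ratio 0.11), and Rplp1 had 5618 and 4568 CPM (0.30), both higher with dexamethasone. Rplp2 was counted at 1.53 and 0.61 CPM under its own symbol. Rpl5 (log2 ratio 0.0078) and Rpl11 (0.074), which carry the 5S RNA and restrain Mdm2 when ribosome assembly fails, were close to equal. Rpl4, which lines the exit tunnel, stood at 561 and 546 CPM (0.039). Rpl41, the smallest ribosomal protein, took the most UMIs of the core genes at 7255 and 5582 CPM (0.38), ahead of Rplp1, Rplp0 and Rpl27a (4954 and 4062 CPM). UMIs count the molecules captured and assigned to each ID, so their order need not be the order of molecules per cell.

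Rps27a, made as a fusion with ubiquitin, had 3517 CPM with dexamethasone and 3216 in the control at its main ID (log2 ratio 0.13) and 545 and 378 CPM at its second ID (0.53). The Fau family, a ubiquitin-like protein joined to Rps30, lies outside the symbol rule and was counted at an ID that RefSeq names Faul1, at 4081 CPM with dexamethasone and 3641 in the control (log2 ratio 0.16). Rack1, the scaffold on the head of the small subunit, went the other way with 962 and 1309 CPM, for a log2 ratio of -0.44 (-0.46 to -0.42). Across the 65 core genes of at least 1000 UMIs the log2 ratio had a Spearman correlation of 0.09 with the log2 level and of -0.25 with the number of pseudogene symbols RefSeq lists for the gene, as a description over genes that share 2 libraries.

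The copy-symbol members, a mix of paralogues and copies, varied more than the core genes. The 16 copy-symbol members had log2 ratios from -1.11 to 1.75 with a median of 0.34 and an SD of 0.79, where counting error gives 0.31. Their median lay 0.206 above that of the core genes. This distance was 0.016 under the stricter gate and 0.476 in non-cycling microglia alone, and most of these members held few UMIs. At 20 CPM in at least 1 library stood 6 of them, Rps19l2, Rpl22l1, Rps27l, Rps4y2, Rpl36al and Rps18l1, a set picked by level after the values were seen. The 6 further IDs ranged from -1.19 to 0.53.

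Rpl22l1 and Rps27l are true paralogues rather than copies. Rpl3l and Rpl7l1 were also treated as separate genes and, like these, kept out of the family sums. Rpl22l1, the partner of Rpl22 that can stand in for it, had 505 CPM with dexamethasone and 390 in the control, for a log2 ratio of 0.37. Rps27l, a p53-inducible relative of Rps27, had 362 and 309 CPM, for a log2 ratio of 0.23. Rpl36al had 52.7 and 33.0 CPM, for a log2 ratio of 0.68, beside 0.19 for Rpl36a. Rps19l2, a name RefSeq lists as a synonym of Rps19, had 365 and 110 CPM, for a log2 ratio of 1.73 (1.68 to 1.78), and it was the only sizeable Rps19 count in the table, since no feature is named Rps19 and a second ID named Rps19l2 stood at 0.35 and 0.40 CPM. Of the remaining copy symbols, the highest was Rpl39l at 1.77 and 0.53 CPM (log2 ratio 1.75) and the rest ran from Rps18l1 at -1.11 to Rpl30l1 at 0.96.

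Some copies went against their core gene. The second ID of Rps10 had 74.6 CPM with dexamethasone and 169.8 in the control, for a log2 ratio of -1.19 (-1.26 to -1.11), where the main ID stood at 0.70, and Rps10l1 was at -0.62 on about 1 to 2 CPM. Rps18l1 had 10.8 and 23.2 CPM (log2 ratio -1.11) beside 0.33 for Rps18. Rps4y2 had 43.5 and 66.6 CPM (-0.61) beside 0.21 for Rps4x. In each of these pairs the more abundant ID was higher with dexamethasone and the rarer one lower. These 4 were all the members at or past 0.5 toward the control.

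Further copies lay outside the symbol rule under LOC and clone-type names, which the RefSeq gene table identifies by gene ID or synonym. It matched 766 of 1608 LOC features, and 33 copies of ribosomal protein genes held at least 20 UMIs, 2306764 UMIs in all beside 16881789 in the members. In microglia 30 of them were compared, with a median log2 ratio of 0.14 and an SD of 0.75. Several core genes that looked almost absent were counted there. Rps29 had 102 UMIs under its own name and 321327 under Rps29-ps16, at 4111 CPM with dexamethasone and 2192 in the control. Rpl9 held 0.733% and 0.941% of the UMIs of its family, the rest lying almost wholly under Rpl9-ps31 at 3286 and 2738 CPM. The same held for Rpl38 (Rpl38-ps9, 592 and 326 CPM), Rpl8 (Rpl8-ps7, 475 and 161 CPM), Rpl35a (Rpl35a-ps6, 224 and 67.1 CPM), Rpl39 (Rpl39-ps11, 376 and 349 CPM) and Rplp2 (Rplp2l2, 164 and 140 CPM). Rpl22, Rps14 and Rps26, which have no feature of their own, were counted as Rpl22-ps2 (1635 and 1154 CPM), Rps14-ps7 (3172 and 3358 CPM) and Rps26l5 (3473 and 2539 CPM). Whether a feature with a pseudogene name held reads of the parent gene was not tested, so each of these values is uncertain as to its gene.

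The 2 core genes of highest ratio each had such a partner. Beside Rpl30 at 1.20, its copy Rpl30l2 had 698 CPM with dexamethasone and 693 in the control, for a log2 ratio of 0.0090. Beside Rpl37 at 1.13, Rpl37-ps5 had 749 and 945 CPM, for a log2 ratio of -0.33 (-0.36 to -0.31). Rpl30 took 55.2% of its family's UMIs with dexamethasone and 35.0% in the control, and Rpl37 took 62.3% and 37.5%. The main ID of Rps10 took 96.1% and 87.1%. The division of a family among its features therefore differed between the libraries, and the ratio of a family was smaller than that of its main ID for all 3.

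Summed over all IDs of a family, an alternative added after the data were seen, the log2 ratio was 0.55 for Rpl30 (0.53 to 0.57), 0.39 for Rpl37 (0.38 to 0.41) and 0.56 for Rps10 (0.54 to 0.58). Over the 69 families with a core gene the SD of the log2 ratios was 0.25, where the core genes alone gave 0.36. Over all 78 families, which add Rpl35a, Rps19, Rpl8 and Rpl38 among others, it was 0.38, so the smaller spread holds for the 69 only. That 0.36 includes Rps29, Rplp2, Rpl39 and Rps6, whose main IDs stood at under 2 CPM. Over the 65 core genes of at least 1000 UMIs the SD was 0.28. In the 27 families with more than 1 ID, which include Rps29, Rplp2 and Rpl39, the SD was 0.23 summed and 0.46 for the core gene alone. In the 42 families with 1 ID, which include Rps6, it was 0.26. The median stayed near that of the genes, at 0.15 over the 69 families and 0.17 over all 78. Of the 78, 63 were higher with dexamethasone, 12 by at least 0.5, and none was lower by as much, beside 49.0%, 6.22% and 6.27% of single genes. Every family but Rps6 held at least 1000 UMIs, and among single genes of that depth these were 47.8%, 1.72% and 1.46%. The 12 include Rps6, on 25 UMIs with dexamethasone and 24 in the control.

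**Figure D2:**
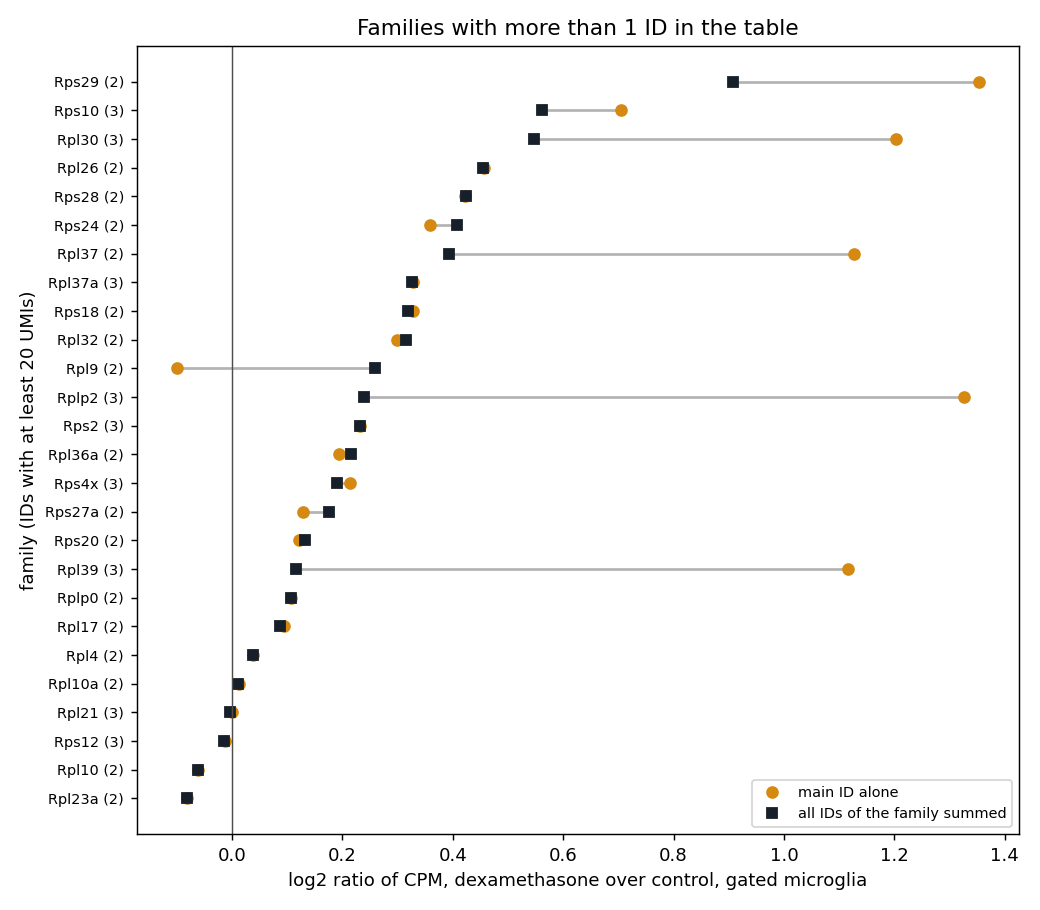
Log2 ratio of CPM, dexamethasone over control, in gated microglia for 26 of the 27 families with more than 1 ID, with the main ID alone as a circle, the sum of all IDs as a square and the number of IDs in parentheses. The longest lines, for Rpl30, Rpl37, Rpl39, Rplp2 and Rps29, lead from a main ID above 1 to a lower sum, and Rpl9 goes from -0.10 to 0.26.

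Among families of at least 1000 UMIs, the 5 of highest ratio, picked after their values were seen, were counted mostly under another name. The Rpl35a family stood at 226 CPM with dexamethasone and 68.0 in the control (log2 ratio 1.73), the Rps19 family at 378 and 120 CPM (1.65), the Rpl8 family at 475 and 161 CPM (1.56), the Rps29 family at 4112 and 2192 CPM (0.91) and the Rpl38 family at 592 and 326 CPM (0.86). Except for Rps29, these families held fewer UMIs than most of the core genes. Core genes with a copy or second ID in the table had a median log2 ratio of 0.21 (n = 29, SD 0.44) and those without one 0.11 (n = 40, SD 0.26). The 29 include Rps29, Rplp2 and Rpl39 and the 40 include Rps6, whose main IDs stood at under 2 CPM, which widens these SDs.

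The gates for the remaining cell types gave 94 dexamethasone and 262 control border macrophages, 58 and 40 granulocytes gated on S100a8 and S100a9, 94 and 119 erythroid cells and 84 and 323 neurons. Ribosomal protein genes took the largest share in border macrophages, the macrophages of the brain's surfaces and vessels, at 21.3% of UMIs with dexamethasone and 19.7% in the control, a log2 difference from microglia of 0.39 (0.38 to 0.40) and 0.45 (0.45 to 0.46). Granulocytes, at 15.9% and 15.1%, lay near microglia (log2 -0.030 and 0.067). Neurons were lower at 13.2% and 12.8% (log2 -0.30 and -0.17), with median depths of 5282 and 2156 UMIs per cell. Erythroid cells, which fill with globin message as they mature, had 2.07% and 1.63%. Once the globin and other erythroid genes of the marker list, 59.4% and 65.5% of their UMIs, were left out of the total, the share was 5.10% and 4.71%, still the lowest of the 5. Microglia stood above granulocytes with dexamethasone and below them in the control, but in the control this order turned under the stricter gate (13.96% in microglia, 13.2% in granulocytes) and in the mean of cells (14.10% and 14.03%). The rest of the order was the same in the libraries. Under a stricter cell filter the erythroid share with dexamethasone was 4.01%. The microglia marker list, most of whose UMIs come from the complement genes C1qa, C1qb and C1qc, stood at 29491 and 28022 CPM in border macrophages, no lower than in microglia. The 6 microglia genes of the gate summed to 342 and 276 CPM in border macrophages against 1165 and 1303 in microglia, and the 6 border genes to 3470 and 5369 against 306 and 300.2, as the gates require. The neuron marker list reached 350 CPM in dexamethasone border macrophages and 43.9 in control ones, and the astroglia list 5230 and 7131 CPM in granulocytes. The astroglia list includes Vim, which is also on the list of other terminal oligopyrimidine messages. Its level without Vim was not computed, so this sum does not by itself show astroglial RNA in granulocytes. What transcripts of other cell types add to these shares was not tested.

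**Figure D3:**
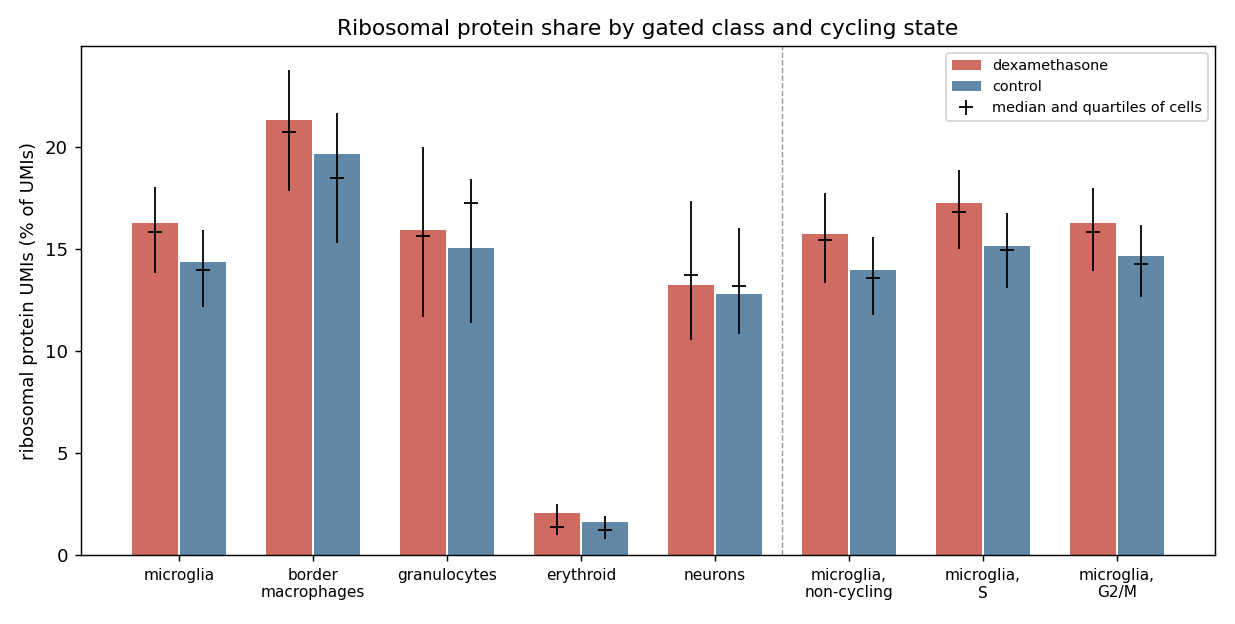
Ribosomal protein UMIs in percent of all UMIs of the gated cells, for 5 cell classes and, right of the dashed line, 3 cycling states of microglia, in the dexamethasone and control libraries. Bars are the share of the summed UMIs, and black marks are the median and quartiles of single cells. Border macrophages stand highest at 21.3% and 19.7% and erythroid cells lowest at 2.07% and 1.63%.

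The 5 core genes with the widest range over the classes were Rps27, Rpl3, Rpl13a, Rpl18 and Rpl6, with log2 ranges of 4.87 to 4.99 that all end in erythroid cells. Rps27 went from 4051 CPM in border macrophages to 125 in erythroid cells with dexamethasone and from 3052 to 96.5 in the control. Rpl13a was instead highest in neurons, at 307 CPM with dexamethasone and 368 in the control, against 198 and 257 in microglia and 9.01 and 10.4 in erythroid cells. Rps2, chosen after its values were seen, kept more of its level in erythroid cells than these, at 1370 and 1195 CPM beside 3905 and 3323 in microglia. Of 78 members compared, 77 were lower in erythroid cells than in microglia by a log2 ratio of at least 1 in both libraries, as were 94.5% of all genes, and 0 were that far higher, against 1.39%.

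Between border macrophages and microglia no member differed by a log2 ratio of 1 in both libraries (0 of 82), where 2.72% of genes were that far higher and 4.41% lower. Core genes had medians of 0.39 and 0.46 there and the mitochondrial ribosomal proteins -0.14 and -0.14. In granulocytes Rps19bp1 was lower by at least 1, and Rpl39 and Rpl3l, at under 10 CPM, were higher (background 7.20% higher and 14.7% lower). In neurons Rps4y2 was lower, at 3.87 and 6.86 CPM against 43.5 and 66.6 in microglia, and Rps29, at under 4 CPM, was higher (background 20.7% higher and 15.1% lower). Core genes in neurons had medians of -0.26 and -0.097, and the mitochondrial ribosomal proteins 0.40 and 0.36. Members named in this paragraph were chosen after their values were seen.

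Outside microglia, the log2 ratio of dexamethasone over control for the summed members was 0.12 in border macrophages, 0.080 in granulocytes, 0.35 in erythroid cells and 0.044 in neurons, beside 0.177 in microglia. Without mitochondrially encoded genes in the total, the dexamethasone and control shares were nearly equal in neurons, at 13.48% and 13.46%. They were 16.3% and 15.7% in granulocytes, 22.0% and 20.9% in border macrophages and 2.07% and 1.63% in erythroid cells. The erythroid marker list took 59.4% of erythroid UMIs with dexamethasone and 65.5% in the control. With that list out of the total, the erythroid shares were 5.10% and 4.71%, a smaller ratio than with it. Erythroid ratios of single genes below keep the list in the total. The median over single granulocytes went the other way, at 15.6% with dexamethasone and 17.3% in the control. In the other classes the median over cells was higher with dexamethasone. These comparisons use the same 2 libraries, so they are no separate evidence of the exposure. Rpl30 stood at 1.14 in border macrophages, 1.04 in granulocytes and 1.72 in erythroid cells, and neurons had 708 CPM of it with dexamethasone and 354 in the control. Rpl37 stood at 1.08, 1.21, 1.21 and 0.93 in border macrophages, granulocytes, erythroid cells and neurons. The second ID of Rps10 was in the same order at -1.35, -1.17, -1.44 and -1.35. Rps15 was at -0.51, -0.39, -0.47 and -0.41. Each of these genes thus kept its sign in all 5 classes.

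**Figure D4:**
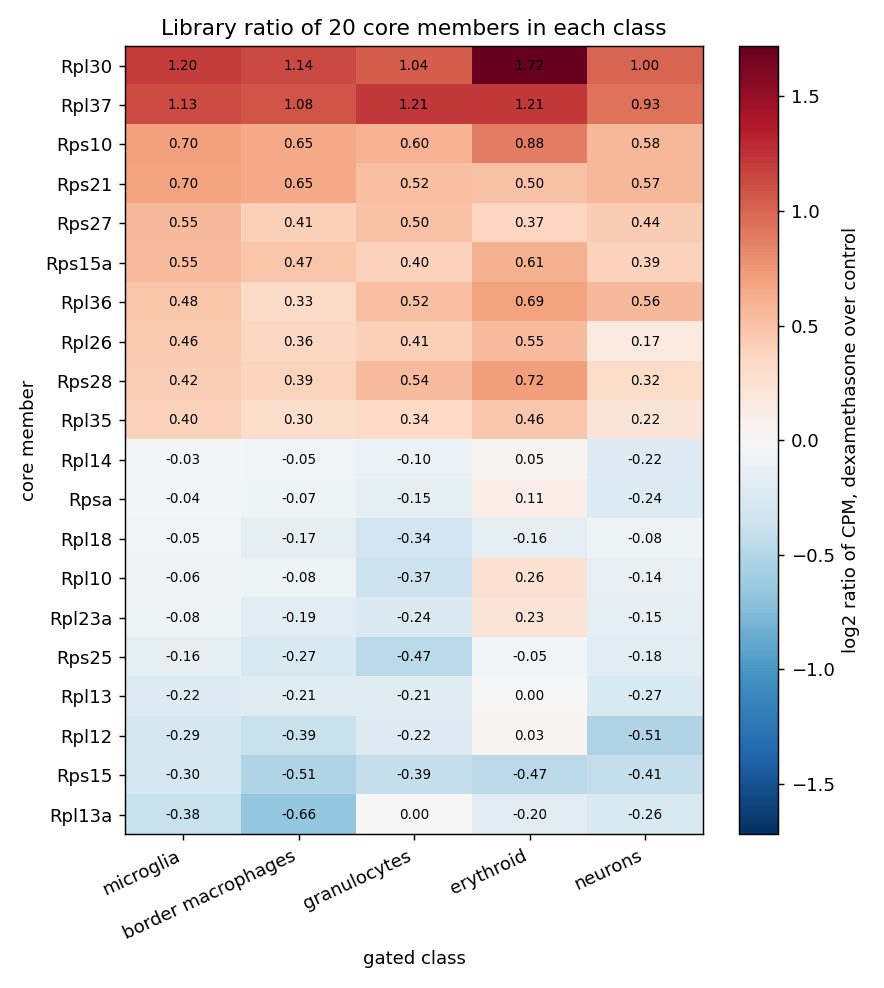
Log2 ratio of CPM, dexamethasone over control, for the 10 core genes of highest and the 10 of lowest ratio in microglia (rows) in each gated class (columns), with the value printed in each cell. Rpl30 and Rpl37 lie between 0.93 and 1.72 in every column, and Rpl12 runs from -0.51 to 0.03.

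Microglia were also split by cycling state, by counts of S-phase and G2/M marker genes, into 1303 dexamethasone and 3014 control non-cycling cells, 499 and 758 S-phase cells and 380 and 868 G2/M cells. At the minimum for S phase stood 104 and 179 cells, and within 1 gene of that for G2/M 47 and 102. Non-cycling cells gave 15.7% and 14.0% of their UMIs to ribosomal protein genes, S-phase cells 17.2% and 15.1%, and G2/M cells 16.2% and 14.6%. The log2 ratio of S phase over non-cycling was 0.133 with dexamethasone and 0.114 in the control. For G2/M it was 0.046 and 0.068, and under the stricter gate it turned to -0.023 in the dexamethasone library. Cycling cells were also larger in UMIs, so the mean ribosomal protein UMIs per cell went from 1337 and 1067 in non-cycling cells to 2028 and 1657 in S phase and 1971 and 1716 in G2/M. The states were set by numbers of detected markers without scaling for depth, so cells of more UMIs reach the cycling minimums more readily. How far the gate itself sets this difference in UMIs was not tested.

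Single members moved little between states. Of 72 members with at least 1000 UMIs in each library's comparison, 2 were higher in S phase by at least 0.25 in both libraries, Rpl4 and Rps19bp1, against 13.9% of such genes, and 0 were lower, against 9.93%. In G2/M the count was again 2, Rpl4 and Rps27l, against 20.0%, and 0 were lower, against 17.1%. Rpl4 had 497 CPM with dexamethasone and 477 in the control in non-cycling cells, 628 and 619 in S phase and 623 and 647 in G2/M, log2 ratios of 0.34 and 0.38 for S phase and 0.33 and 0.44 for G2/M. It was the core gene of highest ratio in both states. Next in S phase by the mean of the libraries were Rps3a (0.22), Rps3 (0.22), Rpsa (0.21) and Rps18 (0.21), and in G2/M Rpl21 (0.22), Rpl31 (0.20), Rps18 (0.19) and Rpl10a (0.19).

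The lowest core genes were largely shared between the states. Rps27 (-0.018), Rps28 (-0.014), Rpl10 (-0.010), Rpl24 (0.031) and Rpl13a (0.039) had the lowest mean log2 ratios in S phase. In G2/M Rpl10, which completes the large subunit late in its assembly, had 2761 CPM with dexamethasone and 2954 in the control against 3229 and 3364 in non-cycling cells, log2 ratios of -0.23 and -0.19. Rps27 had -0.21 and -0.18 there, Rps28 -0.14 and -0.11, Rpl13a -0.14 and -0.086, and Rpl19 -0.091 and -0.041. The mitochondrial ribosomal proteins moved more, with 11 of 36 higher by 0.25 in S phase and 14 of 33 in G2/M in both libraries and none lower. Rps4y2, left out by the minimum of 1000 UMIs and picked after its values were seen, had 0.34 and 0.44 in S phase and 0.54 and 0.45 in G2/M.

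**Figure D5:**
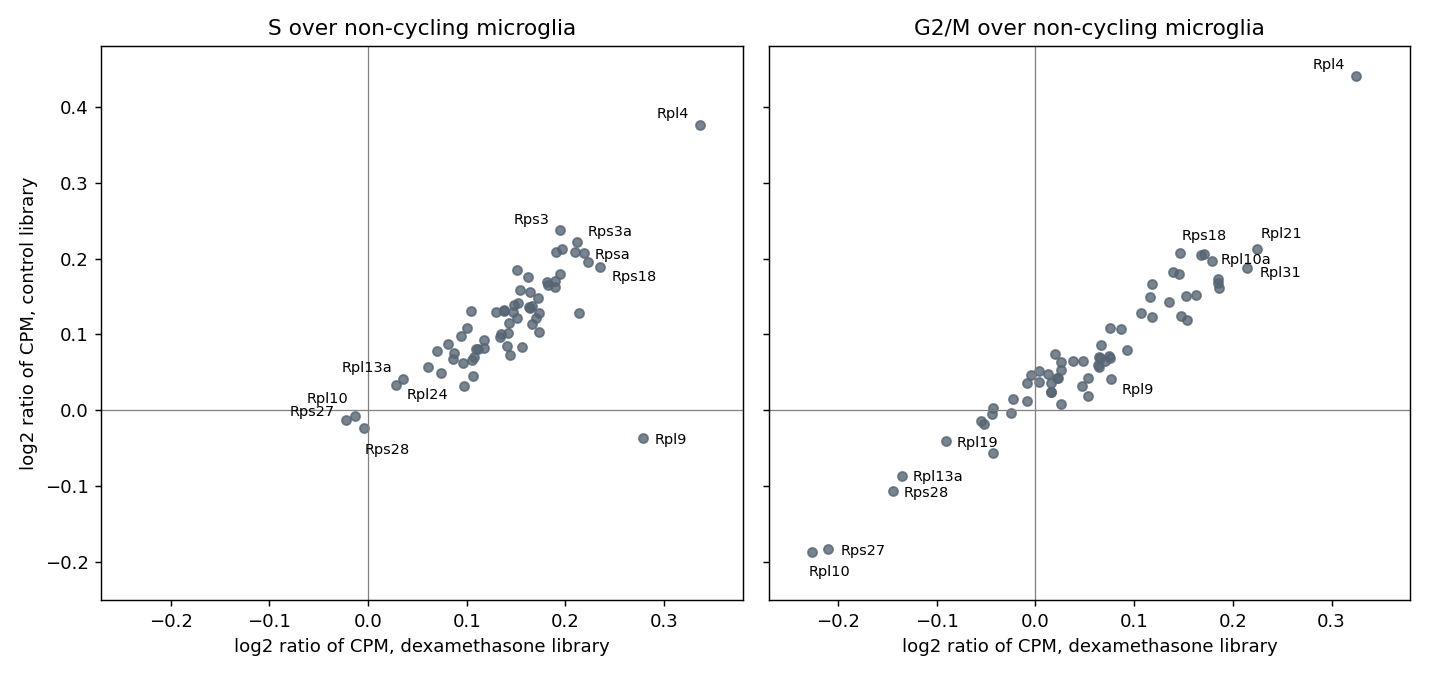
Log2 ratio of CPM of S phase (left) and G2/M (right) over non-cycling microglia for the 65 core genes of at least 1000 UMIs, in the dexamethasone library (horizontal axis) and the control library (vertical axis). Rpl4 stands at the top right of both panels, Rpl10 and Rps27 at the bottom left of the right panel, and Rpl9, the least counted of these genes, lies off the others in the left panel.

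Other genes of translation are given from lists by role. The 9 elongation factors had a median log2 ratio of -0.050 in microglia and the 26 initiation factors -0.024, with 0 past 0.5 in either list. Eif1, which guards start codon choice, had 1202 CPM with dexamethasone and 975 in the control (log2 ratio 0.30), and Eif1ax had 71.7 and 55.3 CPM (0.37). Eif4a1, a helicase of the cap complex, was at 0.11 and its relative Eif4a2 at 0.34. Eef1g had 728 and 806 CPM (-0.15), Eef1b2 was at 0.029 and Eef1e1 at 0.22.

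The 7 nascent chain and other terminal oligopyrimidine messages had a median of 0.12. Tpt1, a long-known message of that type, had 7588 CPM with dexamethasone and 6945 in the control (log2 ratio 0.13), Naca had 1671 and 1538 CPM (0.12), and Hnrnpa1 was at 0.28. Btf3, the partner of Naca in the nascent chain complex, had 56.8 and 112 CPM, for a log2 ratio of -0.97 (-1.06 to -0.89), the 1 gene of its list past 0.5. The 27 ribosome biogenesis genes had a median of 0.020. Ncl, which encodes nucleolin, had 542 and 554 CPM (-0.032), Nop10 was at -0.17, Rrs1 at -0.29 and Polr1c at -0.25. Nhp2 alone passed 0.5, at 17.5 and 4.30 CPM, for a log2 ratio of 2.02, and was named after its value was seen. Among the 72 mitochondrial ribosomal proteins, Mrpl17 (237 and 241 CPM, -0.025) and Mrpl54 (231 and 221 CPM, 0.061) were near 0 and Mrpl37 (-0.43) and Mrps16 (-0.33) were the farthest from 0 of those at 20 CPM or more.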

How the data were processed

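Droplet libraries from cells sorted as microglia were sequenced, 1 per group. Per the submitters' processing notes, reads were processed with Cell Ranger 7.0.0 and Rnor_6.0. The deposited values are counts of UMIs per gene and barcode, with no normalization, in sparse matrices. Whether reads shared by near-identical genes were counted is not given in the sources used here.

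Barcodes under 200 genes or over 20% mitochondrial UMIs were dropped, which kept 4199 of 4328 dexamethasone and 8044 of 8342 control barcodes. Marker gates then placed 68.8% and 74.6% of them. Microglia had at least 3 of 6 microglia genes, at most 2 of 6 border macrophage genes and at most 2 neuron markers. Border macrophages had at least 4 of the 6 border genes and at most 2 microglia genes, granulocytes at least 10 UMIs of S100a8 and S100a9, erythroid cells at least 10% erythroid-list UMIs, and neurons at least 4 neuron markers and at most 1 microglia gene. No doublet caller was run. The 12 and 18 cells that passed more than 1 gate were left out, so doublets within a class remain. G2/M cells had at least 8 G2/M markers, S-phase cells at least 6 S markers and fewer of G2/M, and non-cycling cells at most 3 of each.

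UMIs were summed per class and library and scaled to CPM. Ratios carry exact conditional binomial intervals and shares exact Clopper-Pearson intervals. On simulated counts for 13727 genes of the whole libraries, the simulated ratio lay inside the interval for 95.4% of the genes left unchanged and for 96.0% of 200 changed ones. Ratios were compared for genes with at least 20 UMIs in both libraries together and at least 1 in each.

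The members and gene lists were chosen with earlier results of these data known. The gate rules and the split of repeated symbols were set after seeing the data. Core genes named are the 10 highest and 10 lowest ratios at 50 CPM or more, the 5 of most UMIs, Rpsa, the stalk genes and Rps27a, the 5 of widest range over classes, and the 5 highest and lowest per cycling state. A few named genes are not reported here. All copy symbols enter by their range, and each list of translation genes gives 2 by level and 2 by ratio. Of 77 listed translation genes 5 had no match by symbol, and of 154 markers 9. Copy names and promoters come from RefSeq (GRCr8), whose coordinates are not those of Rnor_6.0. Python 3.11.15, numpy 2.4.6, scipy 1.17.1 and pandas 2.3.3 were used. Alternatives were scaling, cell filter, gate, UMI minimum, thinning, the mean of cells, cycling cut and, added after seeing the data, family sums.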

Additional observations from a re-analysis of the deposited data

How the results depend on the processing

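No paired analysis was possible because each group has 1 library, and leaving out a library would leave no comparison. Values below are log2 ratios unless named otherwise, in the order dexamethasone, control where there are 2. Under the alternatives, 38 values moved by no more than a tolerance set from counting error, 75 moved by more and 1 reversed. For counts of genes the tolerance was 1.5 times. The 1 that reversed is the G2/M ratio under the stricter gate. The order of control microglia and granulocytes also turned, under that gate and in the mean of cells. The cause of these movements was not tested. Depth limits the copy symbols, most of which held few UMIs. The median counting error of their log2 ratios was 0.23, so moves of their distance from the core genes were not shown to exceed counting error.

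For the summed members in microglia (0.177), the ratio was 0.133 without mitochondrially encoded genes in the total, 0.158 without those and the ribosomal protein genes, 0.147 under the stricter gate (at least 5 of the 6 genes and no border macrophage, granulocyte or neuron marker, with the other gates raised likewise), 0.185 as the mean of cells and 0.171 in non-cycling cells. The median over members (0.154) was 0.110 and 0.136 under these totals, 0.122 with at least 100 UMIs, 0.0815 under the stricter gate, 0.178 with cells thinned to 4500 UMIs and 0.178 in non-cycling cells. The SD over core genes (0.364) was 0.281 with at least 100 UMIs, 0.294 under the stricter gate and 0.335 thinned. Summed by family it was 0.2498 over the 69 families with a core gene and 0.378 over all 78. The 17 members higher by 0.5 became 9 with at least 100 UMIs and 8 under the stricter gate, and the 4 lower became 0 summed by family. The distance of copy symbols from core genes (0.206) was 0.105 with at least 100 UMIs, 0.0156 under the stricter gate, 0.412 thinned and 0.476 in non-cycling cells.

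For the share of UMIs in percent, the stricter gate gave 15.5 and 14.0 in microglia, 22.7 and 20.5 in border macrophages, 14.5 and 13.2 in granulocytes, 2.13 and 1.70 in erythroid cells and 12.6 and 11.99 in neurons. Thinning gave 16.1 and 14.3, 21.0 and 19.2, 15.6 and 15.3, and 2.22 and 1.65 in the first 4, and 12.7 in control neurons, after leaving out 38 of 84 and 218 of 323 neurons below 4500 UMIs. The mean of cells gave 16.0 and 14.1, 21.2 and 18.5, 14.9 and 14.0, 2.29 and 1.75, and 14.4 and 13.8 in all 5. The stricter cell filter (at least 500 genes, at most 10% mitochondrial UMIs) gave 14.4 in control microglia, 19.7 in control border macrophages, 4.01 and 1.78 in erythroid cells and 12.4 in control neurons.

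For S phase over non-cycling cells (0.133 and 0.114), the ratio was 0.108 in the control without mitochondrially encoded genes, 0.156 and 0.128 without those and the ribosomal protein genes, 0.167 and 0.168 under the stricter gate, 0.117 and 0.108 thinned, 0.126 in the control as the mean of cells, and 0.129 and 0.128 with at least 8 S and 12 G2/M markers. For G2/M (0.046 and 0.068), it was 0.0610 in the control without mitochondrially encoded genes, 0.0526 and 0.0720 without those and the ribosomal protein genes, 0.0634 in the control under the stricter cell filter, -0.0228 and 0.0923 under the stricter gate, 0.0308 and 0.0567 thinned, and 0.0391 and 0.0566 with the other marker minimums.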
